A study of Mus musculus with 12 samples.

Results

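Interferon response genes, which cells switch on when an interferon binds its receptor, were followed through RNA sequencing of mouse prostate organoids that carried a mutant SPOP or did not. The set was a fixed list of 42 gene names, chosen with earlier results of these data known, and all 42 were found among the 43243 gene names of the files. Organoids are cultures grown in Matrigel from digested prostate tissue, and SPOP is the subunit of a cullin ubiquitin ligase that selects the proteins to be marked for degradation. There were 6 libraries labelled SPOPmut and 6 labelled SPOPwt, with the numbers S0 to S5 used once in either group, and equal numbers were taken as pairs, 6 in all. Prostate cells of all groups were grown in Matrigel with epidermal growth factor. For inducible lines the protocols name CreERT2, a Cre recombinase that works only with tamoxifen bound, brought in by a virus with puromycin selection (Line_A) or carried as a transgenic TMPRSS2-CreERT2 construct (Line_B), and 1 μM 4-hydroxytamoxifen overnight, without saying whether controls received it. Cells of these lines were sorted by GFP, while controls had a sham sort, so genotype and sorting cannot be told apart. For a noninducible line, with Cre under the Probasin promoter, SPOPmut stands for PbCre;R26F133V mice and control for mice negative for PbCre. The 6 pairs are given as 5 from a model A and 1 from a model B, with no word on which library or line belongs to either. Mouse strain and age were not given in the labels. The pairs of model A may come from a single line, so the p-values below rest on a spread among samples that may be technical.

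Type I interferons act through a receptor of the subunits Ifnar1 and Ifnar2 and the kinases Jak1 and Tyk2, which activate a complex that holds Stat2 and Irf9. That complex binds a DNA element called the interferon-stimulated response element (ISRE) and switches on antiviral genes. Interferon gamma uses another receptor, and its signal reaches a different element, the gamma-activated site (GAS). Many of the induced genes are also parts of the pathway, such as the RNA sensors that lead to interferon production and Irf7, which amplifies it, and cells without infection keep a low level of most of them.

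Promoter windows from RefSeq on GRCm38.p6, which reach from 250 bases before to 50 bases after the annotated start, were at hand for 32 of the 42 genes. The ISRE core GAAANNGAAA, searched on both strands, was present in 16 of the 32, against 3.99% of the 27025 genes with a window. The GAS core TTCNNNGAA was present in 9 of the 32, against 9.55% of all genes with a window. The 2 motifs can overlap, and a match is a string of letters and not a measured binding site. In 10 genes an ISRE match lay wholly before the start. Those stretches are shown because they hold the letters of the element named for interferon, 5′ to 3′ on the strand of the gene, with every base of a match in capitals (TTTCNNTTTC is the same core read on the other strand).
Isg15 (chr4:156200850-156200921, minus strand): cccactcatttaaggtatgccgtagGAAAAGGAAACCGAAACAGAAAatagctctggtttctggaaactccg
Ifit1 (chr19:34640760-34640838, plus strand): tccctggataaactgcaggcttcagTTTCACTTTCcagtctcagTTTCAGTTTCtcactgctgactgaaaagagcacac
Ifit3 (chr19:34583348-34583441, plus strand): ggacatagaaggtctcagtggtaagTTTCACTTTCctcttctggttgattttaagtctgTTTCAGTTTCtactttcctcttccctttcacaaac
Rsad2 (chr12:26456538-26456597, minus strand): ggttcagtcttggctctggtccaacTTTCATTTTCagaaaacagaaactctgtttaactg
Oas1a (chr5:120907526-120907570, minus strand): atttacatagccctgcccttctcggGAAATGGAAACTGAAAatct
Bst2 (chr8:71537562-71537627, minus strand): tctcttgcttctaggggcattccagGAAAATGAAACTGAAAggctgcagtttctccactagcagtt
Stat2 (chr10:128270251-128270310, plus strand): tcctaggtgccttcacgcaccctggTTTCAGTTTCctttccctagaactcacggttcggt
Gbp2 (chr3:142620579-142620638, plus strand): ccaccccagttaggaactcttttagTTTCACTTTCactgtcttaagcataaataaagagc
Gbp3 (chr3:142559974-142560039, plus strand): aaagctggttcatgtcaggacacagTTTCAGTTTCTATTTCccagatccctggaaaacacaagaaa
Igtp (chr11:58199497-58199555, plus strand): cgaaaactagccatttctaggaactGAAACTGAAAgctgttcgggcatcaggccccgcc
In Isg15, 3 overlapping matches formed a single run, and Gbp3, Oas1a and Bst2 each held 2 overlapping matches. In Ifit1 and Ifit3 both matches were separate. In the other 6 genes (Ifih1, Ddx58, Ifitm3, Trim21, Eif2ak2 and Psme1) every match lay wholly after the start.

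The values are RPKM, read number scaled to transcript length and library depth, at an estimated depth of 28270000 to 40980000 reads per library. RPKM of Spop itself ran from 48.1 to 57.0 in SPOPmut and from 40.0 to 52.7 in SPOPwt. The S5 libraries stood apart from the other 10 in both genotypes. The summed RPKM of 16 epithelial markers was 5548 and 4518 in the S5 mutant and control and 26.1 to 149 in S0 to S4, with Epcam at no more than 1.28 RPKM there. That of 19 fibroblast and smooth muscle markers was 28.4 and 24.4 in S5 and 3375 to 5262 in S0 to S4, with Col1a1 at no more than 0.20 RPKM in S5, so the label of prostate organoid did not go with epithelial markers in S0 to S4. Libraries S1 and S2 of a genotype were close to each other, with a median chi-square over genes of 1.84 between the mutants and 1.08 between the controls, where sampling alone gives 0.455 and every other pair of libraries of a genotype stood at 6.45 or more. In pair S0 the deviations of mutant and control from their group means hardly correlated across genes (0.060, against 0.75 to 0.95 in the other pairs). Counts and medians of the 32 genes tested over all pairs are therefore given with and without S0, except those split by motif. Their mean differences are given without S0 too where leaving it out moved them by over 1.5 times or turned their sign. Summed immune markers were 4.84 to 8.41 RPKM over 15 genes, with the leukocyte gene Ptprc at no more than 0.00193 RPKM, and 9 of the 15 stood at 0.1 RPKM or less in every library. Less RNA per cell and fewer cells of a type cannot be told apart in such bulk samples.

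Between SPOPmut and SPOPwt the interferon response genes stood higher in most cases, but by an amount that differed from pair to pair and passed no test. Of the 42 genes, 32 reached an RPKM of 1 in at least 6 libraries and were tested, among 13600 genes in all, by limma on log2(RPKM + 1) with pair as a block. None of the 32 was called at an adjusted p under 0.05, and the share called over all genes was 0%. At an unadjusted p under 0.05, 7 of the 32 were higher (Ddx58, Ifih1, Ifit2, Ifit3, Oasl2, Ifitm3 and Parp12), where 3.82% of all genes were, and 0 were lower, where 1.77% were. The count of 7 was 4 without pair S0 and 1 without pair S5. Of all 13600 genes 647 were higher without S0 and 492 without S5, against 520 in the main fit. With pairs S1 to S4 alone 1 of the 32 was higher and 1 lower, against 741 and 514 of all genes tested. With pairs weighted by their spread 5 of the 32 were higher and 2 lower, against 1361 and 728 of all genes tested. Without the block 0 of the 32 passed, and 17 of all genes tested were higher and 12 lower. The mean difference was above 0 in 30 of the 32 (26 without pair S0), against 50.2% of all genes tested, and below 0 in Adar and Bst2. Under quantile normalization Gbp2 lay below 0 too, and under median-ratio size factors Gbp2 and Eif2ak2 did. The median difference of the 32 was 0.23 on the log2(RPKM + 1) scale, against 0.00055 over all genes tested. It was 0.12 without pair S0, and with pairs S1 to S4 alone it was 0.022, with 20 of the 32 above 0. The 5 genes Ifih1, Ddx58, Parp12, Ifi35 and Psme2 were higher in 6 of 6 pairs, as were 3.62% of all genes tested. That count was 3 under either of the other scalings. Over all genes tested the median difference was 0.048 in S1, 0.049 in S2 and 0.0050 in S3. Below it lay Parp12 in S1 (0.021), Ifih1 in S2 (0.043), Psme2 in S2 (0.029) and Ifi35 in S3 (0.0040). In all remaining pairs 5 genes were higher without S0, and 8 were without S1 or without S2. The 10 genes below the level filter (Nlrc5, Dhx58, Mx1, Mx2, Oas1a, Oas2, Rsad2, Cmpk2, Ifi44 and Gbp3) all had a mean difference above 0. The share among all genes below the filter was not worked out. Mx1, Oas1a and Rsad2 were higher in only 3 of 6 pairs, with their largest differences in S5 (0.89, 0.42 and 0.54). Just inside the filter were Usp18, Rtp4 and Xaf1, at 1 RPKM or more in 6 libraries, and just outside were Gbp3, in 5 libraries, and Dhx58, in 4.

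**Figure D1:**
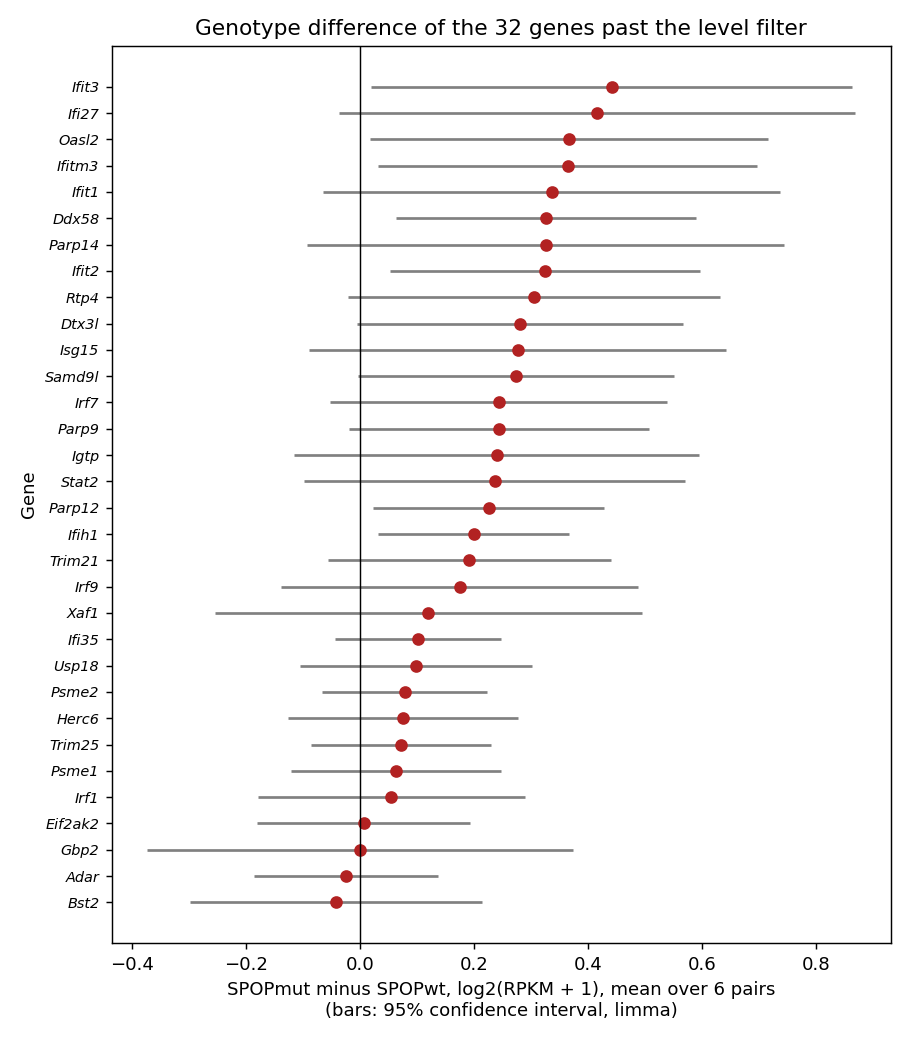
Difference between SPOPmut and SPOPwt in log2(RPKM + 1), as the mean over 6 pairs, for the 32 interferon response genes tested; points are estimates and bars are 95% confidence intervals from limma. Points for 30 of the 32 genes lie above 0 and the intervals of 7 of the 32 exclude 0, before any adjustment for the number of genes.

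Pair by pair, the difference was present in S0 and S5, small in S4 and near 0 in S3, while in S1 and S2 most of the genes stood slightly lower. Pairs S0, S4 and S5 are described apart from S1 to S3, a division made with these values known and therefore not tested. In S0 all 42 genes were higher in the mutant, where 49.2% of all genes tested were, and the median difference of the 32 tested genes was 0.76. In S5, 41 of the 42 were higher, where 49.5% of all genes tested were, with Bst2 as the exception and a median of 0.41. In S4, 33 of the 42 were higher, where 42% of all genes tested were, and the median was 0.12. In S1 and S2 the larger part stood lower instead, with 15 of 42 higher in S1 (58.9% of all genes tested) and 13 of 42 in S2 (65.7%), at medians of -0.061 and -0.041. In S3, 29 of 42 were higher (51.3% of all genes tested), at a median of 0.026. Over all 42 genes, those below the filter included, the medians were 0.49 in S0, -0.059 in S1, -0.049 in S2, 0.052 in S3, 0.12 in S4 and 0.40 in S5.

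A difference of 0.5 or more in favour of the mutant was reached by 19 of the 32 tested genes in S0, where 15.6% of all genes tested did. In S5 it was reached by 11 of the 32, against 3.73% of all genes tested. In S4 Oasl2 and Rtp4 reached it (2.22% of all genes tested), in S1 Ifitm3 did (2.9%), and none did in S2 (0.846%) or S3 (1.08%). None of the 32 stood 0.5 or more lower in any pair, where the shares of all genes tested were 16.5% in S0, 2.32% in S1, 0.691% in S2, 1.59% in S3, 1.4% in S4 and 5.4% in S5. Of the 32 genes, 24 were higher in the mutant in all of S0, S4 and S5 (15.2% of all genes tested). In all of S1, S2 and S3, 7 of the 32 were higher (27.2%) and 8 were lower (13.8%).

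Other measures differed within the pairs too. Among those below, only the proliferation sums were lower in the mutant in S0, S4 and S5 and higher in S1 to S3. In S0 the summed RPKM of 16 proliferation genes was 334 in the mutant and 649 in the control, and that of 18 NF-kB subunits and targets was 1296 in the mutant and 392 in the control. In S5 the proliferation sums were 46.3 in the mutant and 71.8 in the control, and in S4 they were 369 in the mutant and 464 in the control. In S1 to S3 the proliferation sum was higher in the mutant, at 663, 661 and 101 in the mutant libraries and 636, 612 and 67.6 in their controls. Summed immune markers were higher in the mutant in every pair but S1, at 6.13, 4.84, 5.73, 8.41, 6.69 and 8.41 in the mutant libraries of S0 to S5, against 5.59, 5.37, 5.22, 7.95, 5.88 and 8.01 in their controls. Of the epithelial markers 5 were tested, with median differences of 0.70 in S0, -0.52 in S1, -0.40 in S2, 0.039 in S3, 0.32 in S4 and -0.16 in S5, and their sum in S0 was 149 in the mutant and 59.9 in the control. Of the fibroblast and smooth muscle markers 14 were tested, with median differences of 0.36 in S0, 0.25 in S1, 0.26 in S2, 0.072 in S3, 0.40 in S4 and 0.055 in S5. Of the 14, 6 were higher in 6 of 6 pairs (3.62% of all genes tested). Among these 6, Cdh11 and Pdgfrb were near 0 in S5, at 0.143 and 0.067 RPKM in the mutant and 0.137 and 0.034 RPKM in the control. S100a4, also among them, stood at 8.52 RPKM in the S5 mutant and 5.00 RPKM in its control. The NF-kB sums were 1162 and 616 in the mutants of S4 and S5, against 1740 and 587 in their controls. In S4 Ccl2 alone stood at 552 RPKM in the mutant and 992 RPKM in the control. Of the NF-kB genes 15 were tested, and all 15 were higher by their mean (50.2% of all genes tested). Their median differences were 1.29 in S0, 0.22 in S1, 0.075 in S2, -0.096 in S3, 0.011 in S4, 0.31 in S5 and 0.30 over all pairs. The part of these measures in the interferon result was not tested. Set against the S1 and S2 controls in place of its own, the S0 mutant stood higher, with 30 and 31 of the 32 genes above the control and medians of 0.36 and 0.41. Against the S3, S4 and S5 controls it was higher for 4, 2 and 24 of the 32, at medians of -0.48, -0.18 and 0.66. A difference of 0.5 or more was reached by 12, 13, 0, 0 and 17 of the 32 against the controls of S1 to S5. The shares of all genes tested were 7.57%, 7.75%, 12.5%, 4.91% and 26.7%. Across all genes tested the Pearson correlation of the S0 mutant was 0.966, 0.967, 0.937, 0.962 and 0.790 with the controls of S1 to S5. It was 0.944 with its own control. Genes of a library are not independent replicates.

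**Figure D2:**
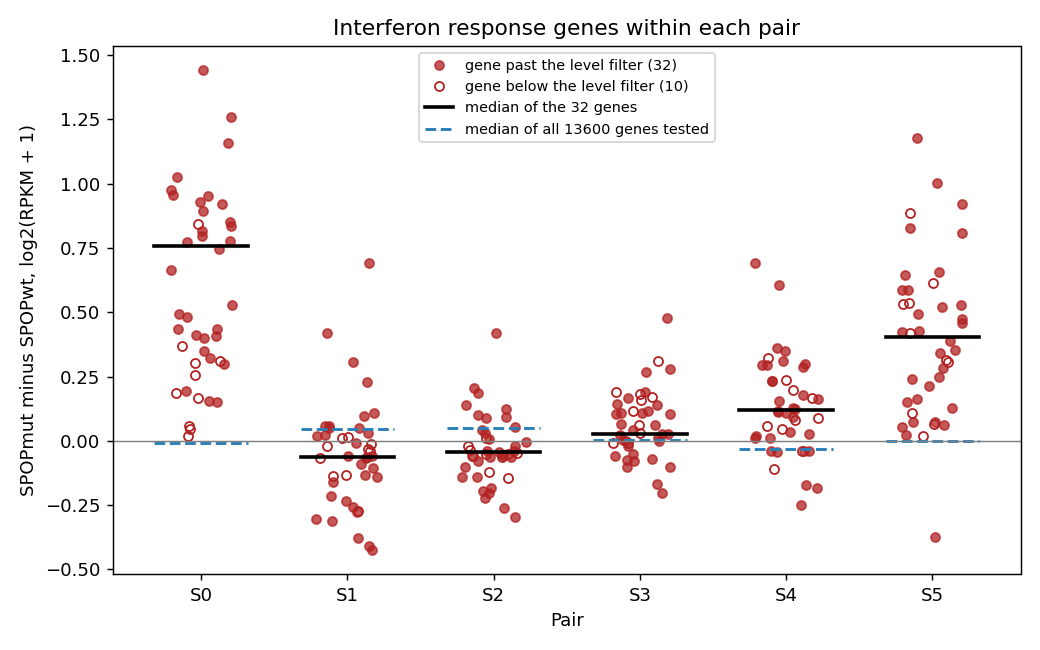
Difference between the SPOPmut and the SPOPwt library of each pair in log2(RPKM + 1), with 1 point for each of the 42 interferon response genes (filled: past the level filter; open: below it), the median of the 32 filtered genes as a solid line and the median of all 13600 genes tested as a dashed line. All points lie above 0 in S0 and all but Bst2 do in S5, while the points of S1 and S2 lie mostly below 0.

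Among the transcription factors, Stat2 and Irf9, parts of the complex that binds the ISRE, followed the pattern of the whole group. Stat2 stood at 7.49, 4.59, 5.61, 19.6, 10.9 and 8.72 RPKM in the mutant libraries of S0 to S5, against 3.82, 5.67, 5.69, 20.5, 8.73 and 5.21 RPKM in their controls. It was higher in the mutant in S0, S4 and S5 and lower in S1, S2 and S3, with a mean difference of 0.24 (SE 0.15, 95% confidence interval -0.10 to 0.57, limma adjusted p = 0.887, 0.12 without pair S0). Irf9 stood at 4.61, 2.52, 2.62, 7.15, 5.56 and 6.07 RPKM in the mutant libraries of S0 to S5, against 2.28, 3.36, 2.88, 6.79, 4.85 and 4.15 RPKM in their controls. Its S0 mutant was 2.02 times its control and its S5 mutant 1.46 times, while its S1 mutant was 0.749 times. Irf7, which drives the second wave of interferon production, stood at 1.19, 0.392, 0.451, 2.10, 2.06 and 3.20 RPKM in the mutant libraries of S0 to S5, against 0.215, 0.451, 0.510, 2.15, 1.38 and 2.20 RPKM in their controls. The S0 control was the lowest of the 12 and S5 held the highest values of both genotypes. Irf1, which responds most to interferon gamma, overlapped between genotypes, at 15.2 ± 5.83 over the 6 SPOPmut libraries, against 14.5 ± 5.06 over the 6 SPOPwt libraries (RPKM ± SD). Nlrc5, the coactivator of class I antigen presentation genes, stood at no more than 0.64 RPKM in any library and was not tested. Its 2 highest values were the mutant (0.63 RPKM) and the control (0.64 RPKM) of S3.

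Both RNA sensors that were tested stood higher in the mutant of every pair, without passing the adjusted threshold. Ddx58, the sensor RIG-I, stood at 7.26, 4.77, 5.00, 9.38, 8.49 and 4.26 RPKM in the mutant libraries of S0 to S5, against 3.36, 4.55, 4.51, 7.54, 7.53 and 2.93 RPKM in their controls. The mutant was the higher of every pair, by 0.058 in S1 at the least and 0.92 in S0 at the most, and the mean difference was 0.33 (SE 0.11, 95% confidence interval 0.063 to 0.59, limma adjusted p = 0.881, 0.21 without pair S0). Ifih1, the sensor MDA5 for long double-stranded RNA, stood at 1.68, 1.31, 1.33, 3.08, 2.40 and 1.13 RPKM in the mutant libraries of S0 to S5, against 1.01, 1.16, 1.26, 2.58, 2.13 and 0.683 RPKM in their controls. Its mutant too was above the control in 6 of 6 pairs, by 0.20 (SE 0.073, 95% confidence interval 0.033 to 0.37, limma adjusted p = 0.881). Dhx58, the regulator LGP2 of both sensors, was below the filter, at up to 2.59 RPKM in the S3 mutant and 1.89 RPKM in its control. Trim25, a ubiquitin ligase that activates RIG-I, differed by 0.35 in S0 and by -0.038 to 0.062 in the other pairs.

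The mean differences of the antiviral effectors ranged widely, from that of Ifit3 to those of Eif2ak2 and Adar near 0. Ifit3, one of the proteins that bind foreign RNA, stood at 5.79, 2.12, 1.92, 25.3, 8.47 and 4.70 RPKM in the mutant libraries of S0 to S5, against 1.50, 1.66, 2.37, 17.9, 7.07 and 3.10 RPKM in their controls. The S0 mutant was 3.86 times its control, both libraries of S3 were above all others, and the mean difference was 0.44 (SE 0.18, 95% confidence interval 0.021 to 0.86, limma adjusted p = 0.886, 0.24 without pair S0). Ifit1, which recognises RNA without a methylated cap, stood at 1.19, 0.362, 0.307, 3.24, 2.04 and 8.34 RPKM in the mutant libraries of S0 to S5, against 0.111, 0.427, 0.441, 2.85, 1.82 and 3.66 RPKM in their controls. In S5 the mutant was 2.28 times its control and in S0 10.7 times, from a control of 0.11 RPKM, while in S1 and S2 the mutant was the lower. Ifit2, of the same family, stood at 17.4, 19.9, 17.4, 20.5, 16.2 and 3.03 RPKM in the mutant libraries of S0 to S5, against 12.6, 14.6, 15.1, 16.9, 18.6 and 1.27 RPKM in their controls. It was higher in the mutant in every pair but S4, and S5 was far below the other pairs in both genotypes. Near-identical copies in the Ifit, Oas, Ifitm and Gbp families can share reads, so values of single members are uncertain.

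Oasl2, a relative of the enzymes that make the signal for RNase L, stood at 1.46, 0.591, 0.618, 5.79, 5.11 and 3.73 RPKM in the mutant libraries of S0 to S5, against 0.210, 0.658, 0.682, 5.31, 2.78 and 2.36 RPKM in their controls. The mutant was the higher in S0, S3, S4 and S5, by 1.02, 0.11, 0.69 and 0.49, and the lower in S1 and S2 by less than 0.06. Ifitm3, a membrane protein that blocks the entry of viruses and the most abundant gene of the set, stood at 461, 409, 363, 629, 517 and 455 RPKM in the mutant libraries of S0 to S5, against 242, 253, 271, 583, 583 and 392 RPKM in their controls. It was the only gene of the 32 to differ by 0.5 or more in S1, and it was lower in the S4 mutant. Its mean difference was 0.37 (SE 0.14, 95% confidence interval 0.032 to 0.70, limma adjusted p = 0.881). Samd9l, which restricts poxviruses and cell growth, was higher in every pair but S1, by 0.53 in S0 and 0.81 in S5.

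The classical effectors Mx1, Mx2, Oas1a, Oas2, Rsad2 and Cmpk2 were below the level filter, and the S5 mutant held the highest value of each. Mx1, a GTPase that traps viral components, stood at 3.21 RPKM in the S5 mutant against 1.28 RPKM in its control and at 0.44 RPKM or less in the other 10 libraries. Rsad2, the antiviral enzyme viperin, stood at 3.12 RPKM in the S5 mutant against 1.84 RPKM in its control and at 0.673 RPKM in the S3 mutant against 0.465 RPKM in its control. Its mutant was the lower library in S1, S2 and S4. Cmpk2, a nucleotide kinase encoded beside Rsad2, stood at 0.966 RPKM in the S5 mutant against 0.359 RPKM in its control and at 0.511 RPKM in the S0 mutant against 0.169 RPKM in its control. Mx2, a relative of Mx1, stood at 1.17 RPKM in the S5 mutant against 0.414 RPKM in its control. Oas1a and Oas2 make the signal for RNase L. Oas1a stood at 0.940 RPKM in the S5 mutant against 0.451 RPKM in its control, and Oas2 at 0.428 RPKM in the S5 mutant against 0.148 RPKM in its control. At 2 kb of transcript, 1 RPKM was about 56.5 to 82.0 reads, and most of the remaining values of these 6 genes rested on fewer.

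By contrast, Eif2ak2, the kinase PKR that halts translation, and Adar, which edits adenosine in double-stranded RNA, had mean differences near 0. Eif2ak2 ranged over 6.75 to 8.73 RPKM in the mutant libraries and 6.82 to 8.88 RPKM in their controls, with a mean difference of 0.0073 (SE 0.081, 95% confidence interval -0.18 to 0.19, limma adjusted p = 0.990, -0.03 without pair S0). Adar averaged 9.03 ± 1.44 over the 6 SPOPmut libraries, against 9.16 ± 1.13 over the 6 SPOPwt libraries (RPKM ± SD), with a mean difference of -0.024 (SE 0.07, 95% confidence interval -0.19 to 0.14, limma adjusted p = 0.954, -0.059 without pair S0). Bst2, the membrane tether of budding virus, stood at 50.6, 32.2, 33.3, 108, 68.8 and 15.6 RPKM in the mutant libraries of S0 to S5, against 36.0, 34.4, 38.3, 122, 64.4 and 20.4 RPKM in their controls. Its mutant was the higher library only in S0 and S4 among the 6 pairs, and its mean difference was -0.041 (SE 0.11, 95% confidence interval -0.30 to 0.21, limma adjusted p = 0.948, -0.15 without pair S0).

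In the ISG15 system, Isg15, a ubiquitin-like protein that is attached to other proteins and also secreted, stood at 24.4, 16.1, 16.6, 21.2, 22.1 and 19.3 RPKM in the mutant libraries of S0 to S5, against 13.2, 15.5, 16.7, 22.8, 22.8 and 9.72 RPKM in their controls. The mutant was 1.84 times its control in S0 and 1.98 times in S5, while the differences in the 4 other pairs ran from -0.10 to 0.057. The mean difference was 0.28 (SE 0.16, 95% confidence interval -0.088 to 0.64, limma adjusted p = 0.887, 0.17 without pair S0). Usp18, which removes ISG15 and restrains the interferon receptor, stood at 0.626, 0.257, 0.222, 2.86, 1.75 and 20.7 RPKM in the mutant libraries of S0 to S5, against 0.227, 0.265, 0.348, 3.08, 1.25 and 18.9 RPKM in their controls. S5 was above all others in both genotypes, and the mutant was the higher library in S0, S4 and S5 only. Herc6, a ligase that attaches ISG15 in the mouse, stood at 1.41 RPKM in the S0 mutant against 0.825 RPKM in its control and at 0.876 RPKM in the S5 mutant against 0.542 RPKM in its control, and its mean difference was 0.077 (SE 0.088, 0.012 without pair S0).

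The PARP enzymes and their partner Dtx3l, a ubiquitin ligase, were all 4 higher in the mutant in S0, S3, S4 and S5. Parp14, an ADP-ribosyltransferase, stood at 4.13, 1.95, 2.18, 7.43, 5.48 and 2.74 RPKM in the mutant libraries of S0 to S5, against 1.14, 2.47, 2.33, 7.07, 4.09 and 1.50 RPKM in their controls. Its S0 mutant was 3.62 times its control and its S5 mutant 1.83 times, and the mutant was the lower in S1 and S2. Dtx3l stood at 3.80, 2.28, 2.72, 5.88, 5.36 and 4.12 RPKM in the mutant libraries of S0 to S5, against 1.77, 2.53, 2.49, 5.77, 4.18 and 2.41 RPKM in their controls. Parp9, which forms a complex with Dtx3l, followed it closely, at 5.25, 3.58, 3.96, 9.94, 8.61 and 4.68 RPKM in the mutant libraries of S0 to S5, against 2.66, 4.05, 3.50, 9.74, 6.74 and 3.44 RPKM in their controls. Both were lower in the mutant in S1 alone, at differences of -0.10 for Dtx3l and -0.14 for Parp9. The Parp9 and Dtx3l genes overlap on opposite strands and the libraries do not keep strand, so their reads cannot be told apart where they overlap. Parp12, which blocks viral translation, exceeded its control in 6 of 6 pairs, by 0.021 in S1 at the least and 0.53 in S5 at the most, with a mean difference of 0.23 (SE 0.088, 95% confidence interval 0.024 to 0.43, limma adjusted p = 0.881).

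Of the other induced genes, Ifi27 stood out for its range. It stood at 38.5, 20.1, 18.1, 73.5, 53.6 and 7.32 RPKM in the mutant libraries of S0 to S5, against 16.7, 18.6, 20.7, 68.3, 49.0 and 2.68 RPKM in their controls. In S5 the mutant was 2.73 times its control and in S0 2.31 times, and the mean difference was 0.42 (SE 0.20, 95% confidence interval -0.037 to 0.87, limma adjusted p = 0.887, 0.27 without pair S0). The S5 values were the lowest of both genotypes and the S3 values the highest. Rtp4, a chaperone of receptors, stood at 1.00, 0.475, 0.295, 2.22, 2.22 and 1.75 RPKM in the mutant libraries of S0 to S5, against 0.195, 0.457, 0.288, 2.70, 1.11 and 0.746 RPKM in their controls. Its S0, S4 and S5 differences were 0.75, 0.61 and 0.66, those of S1 and S2 were below 0.02, and that of S3 was -0.20. Xaf1, a factor that promotes cell death, stood at 1.97 RPKM in the S0 mutant against 0.537 RPKM in its control but was the lower in the mutant in S1, S2 and S3. Trim21, the cytosolic antibody receptor, was higher by 0.66 in S0 and 0.43 in S5 and within 0.12 of 0 in the other pairs. Ifi35 was the most even of the group, at 9.22 to 11.4 RPKM in the mutant libraries and 8.40 to 11.1 RPKM in their controls, and was higher in the mutant of every pair, by 0.0040 in S3 at the least. Ifi44 was below the filter, at 1.95 RPKM in the S5 mutant against 1.91 RPKM in its control.

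Genes that respond to interferon gamma as well were mixed. Gbp2, a GTPase that attacks the vacuoles of parasites, stood at 6.51, 3.53, 4.20, 12.2, 8.99 and 0.773 RPKM in the mutant libraries of S0 to S5, against 3.04, 5.08, 5.37, 12.8, 10.9 and 0.598 RPKM in their controls. The mutant was the higher only in S0 and S5 among the 6 pairs, and the mean difference was 0.0013 (SE 0.16, 95% confidence interval -0.37 to 0.37, limma adjusted p = 0.999, -0.18 without pair S0). Gbp3, of the same family, stood at 1.09 RPKM in the S0 mutant against 0.167 RPKM in its control and was below the filter. Igtp, another GTPase of host defence, stood at 2.72, 1.05, 1.18, 5.37, 4.95 and 2.16 RPKM in the mutant libraries of S0 to S5, against 0.921, 1.39, 1.54, 4.67, 4.05 and 1.20 RPKM in their controls. It followed the group, with the mutant higher in S0, S3, S4 and S5 and lower in S1 and S2. Psme1 and Psme2, the subunits of the proteasome activator PA28, had similar levels in both genotypes on average. Psme1 averaged 30.7 ± 8.67 over the 6 SPOPmut libraries, against 29.7 ± 9.58 over the 6 SPOPwt libraries (RPKM ± SD). Psme2 averaged 14.4 ± 3.93 over the 6 SPOPmut libraries, against 13.6 ± 3.87 over the 6 SPOPwt libraries (RPKM ± SD). The mutant value of Psme2 was above that of the control in 6 of 6 pairs, by 0.30 in S0 and by no more than 0.053 in the others.

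**Figure D3:**
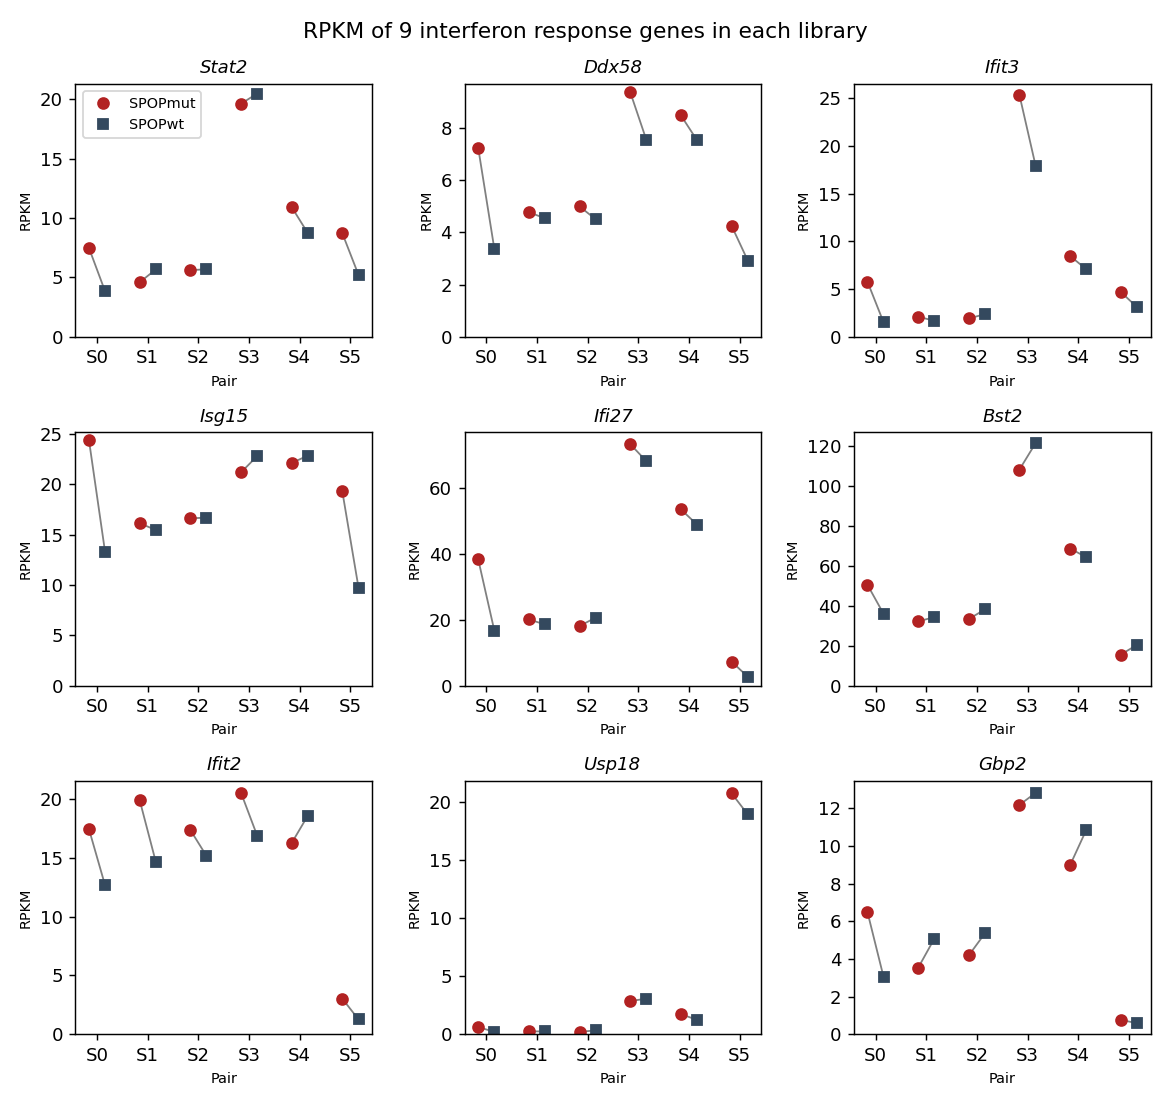
RPKM of 9 interferon response genes in each library, with pairs S0 to S5 along the x axis, SPOPmut as circles left of SPOPwt as squares and a grey line joining each pair. Ddx58 lies higher for the mutant of each of the 6 pairs, Isg15 and Ifi27 differ most in S0 and S5, and Usp18 and Ifit2 differ between S5 and the other pairs far more than between genotypes.

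The level of the genes also differed between pairs. The median RPKM of the 32 tested genes was 6.88, 4.08, 4.60, 9.30, 8.61 and 5.29 in the mutant libraries of S0 to S5, against 3.20, 4.81, 4.94, 8.93, 8.13 and 3.27 in their controls, while the median over all 13600 genes was 7.09 to 7.94. The S3 and S4 libraries of both genotypes were the highest, and the controls of S0 and S5 the lowest. In 38 of the 42 genes, and in 29 of the 32 tested, the 4 libraries of S3 and S4 lay above the 4 of S1 and S2, as they did in 26.6% of all genes tested; the exceptions were Ifit2, Oas1a, Samd9l and Ifi35. In 0 genes of the set did they lie below, against 27.4% of all genes tested. The S3 mutant held the highest of the 12 values for 16 of the 42 genes, the S5 mutant for 12 and the S3 control for 7. The S0 control held the lowest for 19, the S5 control for 12 and the S1 mutant for 7. For these counts the shares of all genes were not worked out, so they are not read as particular to the set. Both S5 libraries lay above the 10 others in 21.4% of all genes tested and below them in 28.1%.

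In S0 both libraries stood apart from those of S1 and S2. The S0 control was the lowest of the 10 libraries of S0 to S4 in 25 of the 32 tested genes (27% of all genes tested), and the S0 mutant lay above its control and the 4 libraries of S1 and S2 in 28 of the 32 (29.1%). Set against the S3 and S4 controls, the S0 mutant was higher for 4 and 2 of the 32 genes, at medians of -0.48 and -0.18. In S5, the pair with epithelial markers, both libraries lay above the 10 others for 5 of the 32 tested genes (21.4% of all genes tested), namely Irf7, Trim25, Ifit1, Adar and Usp18, and for Mx1, Oas1a, Rsad2 and Ifi44 among those below the filter. Both lay below the 10 others for 9 of the 32 (28.1%), namely Irf1, Ifit2, Bst2, Samd9l, Parp12, Ifi27, Gbp2, Psme1 and Psme2. Thus 3 neighbouring Ifit genes on chromosome 19 took different places in S5, with Ifit1 above the other pairs, Ifit2 below them and Ifit3 among them.

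**Figure D4:**
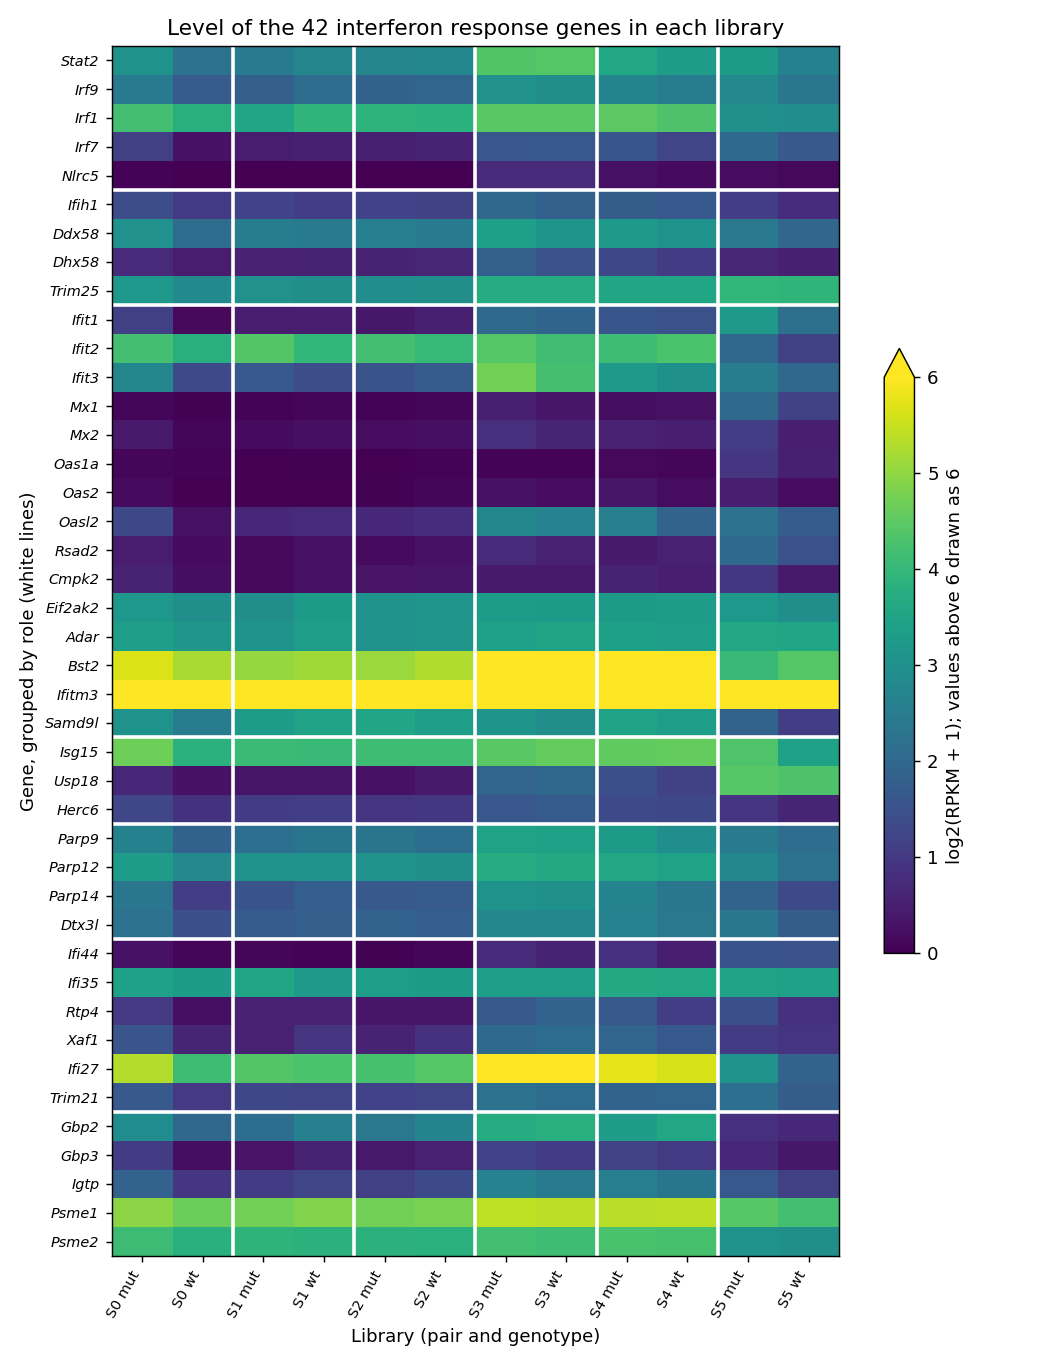
Level of each of the 42 interferon response genes (rows, grouped by role) in each of the 12 libraries (columns, the mutant left of its control in each pair), as log2(RPKM + 1), with values above 6 drawn as 6. The S3 and S4 columns are brighter than those of S1 and S2 in most rows, though not in those of Ifit2, Oas1a, Samd9l and Ifi35, nor visibly in that of Ifitm3, which lies above 6 throughout, and the S5 columns are dark for Ifit2 and Gbp2 and bright for Usp18.

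Genes with and without the ISRE core were set side by side. The median difference in S0 was 0.84 for the 13 tested genes with a match and 0.46 for the 14 with a window but no match. In S5 the medians were 0.42 with a match and 0.34 without, and over all pairs they were 0.24 with a match and 0.15 without. In S3 they were 0.11 with a match and 0.014 without. In S4 the order was turned, at 0.093 with a match and 0.12 without. It was turned too in S1 (-0.067 with and -0.061 without) and S2 (-0.056 with and -0.0046 without). For the GAS core, the 8 tested genes with a match had the lower medians, at 0.43 in S0 and 0.079 over all pairs, against 0.80 and 0.23 for the 19 without. In S2 alone the order was turned, at 0.0069 with a match and -0.043 without. These are descriptions of chosen genes and were not tested. Among the genes printed above, Ifit3, with 2 matches, had the largest S0 difference of the 32 (1.44), while Bst2, also with 2 matches, was the exception in S5 (-0.37).

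The interferon genes themselves were hardly read in any library. Of 21 type I, II and III interferon genes, 10 were listed at 0 in all 12 libraries, Ifng among them, 18 stood at 0.1 RPKM or less throughout, and the highest value was 0.25 RPKM, for Ifne, an interferon of epithelia of the reproductive tract. None passed the level filter, so none was tested. Of 9 receptor subunits and Janus kinases, 8 were tested, 6 were higher by their mean (50.2% of all genes tested) and 2 lower, and none was called. Ifngr2, a subunit of the interferon gamma receptor, averaged 11.9 ± 3.20 over the 6 SPOPmut libraries, against 9.73 ± 4.55 over the 6 SPOPwt libraries (RPKM ± SD) and was above its control in 6 of 6 pairs, by 0.34 (SE 0.10, 95% confidence interval 0.10 to 0.57, limma adjusted p = 0.881). Ifngr1, its partner, averaged 46.8 ± 16.9 over the 6 SPOPmut libraries, against 44.6 ± 17.9 over the 6 SPOPwt libraries (RPKM ± SD), and Ifnar1, of the type I receptor, averaged 11.6 ± 2.78 over the 6 SPOPmut libraries, against 10.7 ± 3.53 over the 6 SPOPwt libraries (RPKM ± SD). Jak1, the kinase both receptors share, averaged 16.1 ± 4.33 over the 6 SPOPmut libraries, against 16.7 ± 4.70 over the 6 SPOPwt libraries (RPKM ± SD).

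Of 18 genes that sense nucleic acids upstream of interferon, 14 were tested, 10 were higher by their mean (50.2% of all genes tested) and 4 lower, and none was called. Tlr3, the endosomal receptor of double-stranded RNA, averaged 4.43 ± 4.85 over the 6 SPOPmut libraries, against 3.34 ± 3.68 over the 6 SPOPwt libraries (RPKM ± SD) and exceeded its control in 6 of 6 pairs, by 0.31 (SE 0.087, 95% confidence interval 0.11 to 0.51, limma adjusted p = 0.871). Ifi204, a DNA sensor, averaged 4.20 ± 1.37 over the 6 SPOPmut libraries, against 5.91 ± 2.17 over the 6 SPOPwt libraries (RPKM ± SD), with a mean difference of -0.39 (SE 0.16, 95% confidence interval -0.76 to -0.016, limma adjusted p = 0.886). Tmem173, the adaptor STING, averaged 34.3 ± 12.4 over the 6 SPOPmut libraries, against 33.3 ± 15.5 over the 6 SPOPwt libraries (RPKM ± SD), and Tbk1, the kinase downstream of it, averaged 14.0 ± 1.19 over the 6 SPOPmut libraries, against 13.2 ± 0.967 over the 6 SPOPwt libraries (RPKM ± SD). Of 12 negative regulators, 11 were tested, 10 were higher by their mean (50.2% of all genes tested) and 1 lower (Ptpn11, a phosphatase), and none was called or had an unadjusted p under 0.05. Socs1, which inhibits Janus kinases, averaged 1.44 ± 0.692 over the 6 SPOPmut libraries, against 1.15 ± 0.417 over the 6 SPOPwt libraries (RPKM ± SD), and Cyld, a deubiquitinase, averaged 8.52 ± 5.37 over the 6 SPOPmut libraries, against 7.12 ± 3.09 over the 6 SPOPwt libraries (RPKM ± SD).

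A list of 61 further interferon response genes, 57 of them in the files, was read beside the 42. Of the 34 tested, 31 were higher by their mean and 3 lower, 6 were higher in 6 of 6 pairs, 10 were higher at an unadjusted p under 0.05 and none was called. The shares of all genes tested were 50.2% higher by their mean, 3.62% higher in 6 of 6 pairs and 3.82% higher at an unadjusted p under 0.05. Their median difference was 0.15 over all pairs, 0.72 in S0, 0.25 in S5, 0.065 in S4 and 0.0063 to 0.060 in S1 to S3. The smallest p of the list was that of Ifi47, a GTPase related to Igtp, which averaged 7.57 ± 5.76 over the 6 SPOPmut libraries, against 5.41 ± 5.06 over the 6 SPOPwt libraries (RPKM ± SD) and exceeded its control in 6 of 6 pairs, by 0.48 (SE 0.10, 95% confidence interval 0.23 to 0.72, limma adjusted p = 0.769). Psmb10, a subunit of the immunoproteasome, averaged 19.2 ± 9.90 over the 6 SPOPmut libraries, against 16.7 ± 9.91 over the 6 SPOPwt libraries (RPKM ± SD), with a mean difference of 0.23 (SE 0.069, 95% confidence interval 0.071 to 0.39, limma adjusted p = 0.881). B2m, the invariant partner of class I molecules, averaged 180 ± 119 over the 6 SPOPmut libraries, against 144 ± 113 over the 6 SPOPwt libraries (RPKM ± SD), with a mean difference of 0.37 (SE 0.12, 95% confidence interval 0.10 to 0.64, limma adjusted p = 0.881). Ifitm2, a neighbour of Ifitm3 of the same family, averaged 299 ± 110 over the 6 SPOPmut libraries, against 241 ± 124 over the 6 SPOPwt libraries (RPKM ± SD). This list too was drawn up with results of these data known.

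By GENCODE M21 on GRCm38, the genes named most above lie on several chromosomes. Ddx58 lies on chromosome 4 at 40203773 to 40239828, Ifih1 on chromosome 2 at 62595798 to 62646255, Parp12 on chromosome 6 at 39086410 to 39118349, Isg15 on chromosome 4 at 156199424 to 156200818 and Stat2 on chromosome 10 at 128270559 to 128292849. Ifit3 lies on chromosome 19 at 34583531 to 34588731, Ifi27 on chromosome 12 at 103434211 to 103440239, Ifitm3 on chromosome 7 at 141009586 to 141010770, Bst2 on chromosome 8 at 71534255 to 71537456 and Usp18 on chromosome 6 at 121245906 to 121270917. The files give 1 RPKM value per gene name, so no exon, intron or untranslated region was measured apart. Besides Parp9 and Dtx3l, values are uncertain where genes overlap, for Igtp with Irgm2 and Irf9 with Rnf31 on the same strand, and for Irf7 with Phrf1, Psme1 with Emc9, Adar with Chrnb2, Rtp4 with Masp1 and Dhx58 with an antisense gene.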

How the data were processed

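RNA of 12 mouse prostate organoid cultures was sequenced in pairs of 51-base reads with an unstranded kit, per the labels' protocols. Reads were aligned to mm10 (GRCm38) with STAR 2.4.0j, per the submitters' processing notes. The deposited values are RPKM per gene name, made by the authors; sources used here name no counting program or annotation. The spacing of low values put depth at 28270000 to 40980000 reads. Only 40.3 to 43.1% of low values fell within 0.04 of a multiple of 0.5 reads, so no count test was run.

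Genes at an RPKM of 1 or more in at least 6 libraries were tested on log2(RPKM + 1) with limma 3.58.1 in R 4.3.3, with pair and genotype as terms, a trended and robust prior, two-sided p-values and Benjamini-Hochberg adjustment over 13600 genes at 0.05. The fit was tested on simulated data. Fold changes on this scale understate those of low genes. Pairing rests on the protocols and the shared numbers; mutant and control deviated together in S1 to S5 (correlations of 0.75 to 0.95) but hardly in S0 (0.060). No libraries were merged as duplicates, though S1 and S2 of a genotype were close. Within-pair differences had 1 library a genotype and no test. The named genes were all 42 members, and of each other list those called or else the 2 of smallest p and the 2 of highest mean RPKM. Members and lists were chosen with earlier results of these data known. Alternatives were another pseudocount, filter, scaling, variance model, weights, no block, and leaving out pairs.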

Additional observations from a re-analysis of the deposited data

Results flagged for a closer look

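For each of the 42 genes, the 6 levels of each genotype and the 6 pair differences, all in log2(RPKM + 1), were searched for a highest or lowest value set apart from the rest by the range test for outliers, which chance passes in about 1 of 20 groups. Of 126 groups, 18 passed, and 14 of the 18 concerned pair S5. The share of all genes that pass this test was not worked out. Both S5 libraries lay above the 10 others in 21.4% of all genes tested and below them in 28.1%, so S5 flags are not read as particular to the set. In S5, the mutant and control stood apart as highest for Mx1 (2.07 in the mutant and 1.19 in the control), Oas1a (0.96 in the mutant and 0.54 in the control) and Rsad2 (2.04 in the mutant and 1.51 in the control), where the next values were 0.74 or less. The control alone stood apart as highest for Ifi44 (1.54, next 0.59). The S5 libraries stood apart as lowest for Ifit2 (2.01 in the mutant and 1.18 in the control) and Psme2 (3.05 in the mutant and 3.0 in the control), and the mutant alone for Samd9l (1.91, next 3.08). The S5 difference stood apart as highest for Mx1 (0.89, next 0.17) and Oas1a (0.42, next 0.056).

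The S0 difference stood apart as highest for Trim25 (0.35, next 0.062) and Psme2 (0.30, next 0.053). The S3 libraries stood apart as highest for Nlrc5, at 0.71 in the mutant and 0.71 in the control, where the next values were 0.27 in a mutant and 0.19 in a control. Mx1, Oas1a, Rsad2, Ifi44 and Nlrc5 were below the level filter.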

How the results depend on the processing

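No interferon response gene was called by limma under any of the 15 alternatives, and over all genes the count of calls was 0 under 14 of them and 9 with pair weights, where the smallest adjusted p of a member was 0.173. Without the replicate block the count of calls was 0 as well, and 17 genes were higher and 12 lower at an unadjusted p under 0.05, against 520 and 241 with it (473 and 353 under quantile normalization, 433 and 317 under size factors). The median difference of the members ran from 0.12 without S0 to 0.29 without S1 as single pairs were left out, and was 0.022 with S1 to S4 alone. Under the other settings for which it was worked out it lay between 0.17 and 0.29. It was not worked out with pair weights, where 21 of the 32 members were above 0, against 30 in the main fit. The S0 median of 0.76 was 0.36 against the S1 control and 0.41 against the S2 control, alternatives chosen after seeing the data. Against the S3, S4 and S5 controls it was -0.48, -0.18 and 0.66. Single genes kept their sign in 450 values, and the 30 that turned belong to 14 genes. Under scaling these were Gbp2 (-0.015 by quantiles, -0.013 by size factors) and Eif2ak2 (-0.0080 by size factors). With pair weights they were Irf9 (-0.019), Trim25 (-0.00053), Eif2ak2 (-0.055), Usp18 (-0.034), Herc6 (-0.039), Xaf1 (-0.12), Gbp2 (-0.22), Igtp (-0.032) and Psme1 (-0.026). With S1 to S4 alone they were Stat2 (-0.010), Irf9 (-0.045), Irf1 (-0.044), Eif2ak2 (-0.098), Isg15 (-0.024), Herc6 (-0.056), Xaf1 (-0.098), Gbp2 (-0.26), Igtp (-0.0091) and Psme1 (-0.048). As single pairs were left out, Irf1 ran from -0.020 (without S0) to 0.15, Eif2ak2 from -0.039 (without S5) to 0.070, with -0.030 without S0, Xaf1 from -0.046 (without S0) to 0.22, Gbp2 from -0.18 (without S0) to 0.087, with -0.028 without S5, Adar from -0.059 to 0.027 (without S1) and Bst2 from -0.15 to 0.025 (without S5). The cause was not tested, beyond the pairs left out or weighted down (the weight of S0 was 0.161). Values well under 1 RPKM rest on few reads.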
